A study of Mus musculus with 12 samples.

Results

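Integrins and laminins are the receptor and ligand chains through which cells hold on to the basement membrane, and 37 of the 45706 genes measured belong to these families by their symbols, of which 36 are described here. The symbols sought were those of integrin α and β chains and of laminin α, β and γ chains, and all counts below are over the 36. There were 26 integrin chains, of which 18 were α and 8 were β, and the others were laminin chains. RNA was sequenced from a murine hepatoblastoma line, BN1, in 12 libraries, with 3 replicas in each of 4 groups. BN1 came from an FVB/N mouse liver tumor driven by Sleeping Beauty vectors that encode an in-frame deletion mutant of β-catenin and a missense mutant of NRF2, with Cdkn2a mutated in exon 2 by Cas9, which the labels call a knockout and the study a partial inactivation. All 4 groups carry EGFP under the Tie2/Tek promoter, as pooled stable clones, and the labels call every library EGFP+.

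UN cells were unsorted and kept in normoxia (21% oxygen). UH cells, also unsorted, had spent 2 days in 1% oxygen. SN cells were sorted by flow cytometry for EGFP after 2 days in 1% oxygen and then expanded in normoxia for about 10 days. SH cells were SN cells returned to 1% oxygen for 2 more days. Sorted cells thus differ from unsorted cells in the selection on a Tie2-driven reporter, in the earlier hypoxia and in the expansion, and these cannot be told apart. The groups come from a single cell line, and EGFP fades with time in culture, so a sorted population need not be uniform. Since these are bulk libraries, fewer cells of a type and less RNA per cell cannot be told apart either. The 3 replicas of a group are described as independent, but nothing says how the cultures were separated, so p-values measure only the spread between these libraries, which may be technical.

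Integrins are transmembrane receptors made of an α and a β chain, and the pairing sets which ligand is bound. Laminins are secreted trimers of an α, a β and a γ chain that assemble into the sheet of the basement membrane, where the α chain carries the main sites bound by integrins. In the liver, laminins are sparse along the normal sinusoid and line bile ducts and larger vessels, and integrin β1 is the main β chain of hepatocytes.

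Expression was given as TPM, a measure of RNA abundance corrected for transcript length and scaled to the same total in every library, so that levels of different genes can be set side by side. Read depth cannot be had from TPM, and precision rests on the spread between replicas. Of the 36 members, 31 had a mean of at least 0.1 TPM and were tested with all 18909 genes that passed this filter. The test was limma on log2(TPM + 1), and a call needed both an absolute log2 fold change above 1 and a p under 0.05 after Benjamini-Hochberg adjustment over all tested genes. The added 1 makes the fold changes of low genes smaller than the ratio of their TPM. The untested members were Itga4, Itgad, Itgal and Itgax, which are mainly chains of blood cells, and Lama2, the laminin α chain of muscle and nerve. None of these 5 passed 0.337 TPM in any library, and Lama2 reached at most 0.149 TPM. Mean levels were at least 1 TPM for 22 members, at least 10 TPM for 14 and at least 100 TPM for 4.

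Across genes, libraries of a group had correlations of 0.977 to 0.991 with each other and 0.903 to 0.960 with libraries of other groups. UN replicate 1 stood somewhat apart, with a mean correlation of 0.978 with the other UN libraries, and some results below are given with and without it. SH libraries had more genes above 0 (21666 to 22369) than the other groups, whose libraries had 18901 to 20251. The labelled cell type was checked with 10 markers of hepatocytes and hepatoblasts. Of these, 6 had a mean of at least 1 TPM, led by Krt18, while Ttr and Cps1 were below 0.1 TPM. The marker of hepatoblastoma Afp had means of 1.83 TPM in UN, 1.22 in UH, 9.20 in SN and 5.08 in SH, and albumin (Alb) did not pass a mean of 2.51 TPM in any group. Summed, the list was at 117, 280 and 290.3 TPM in UN, 219, 202 and 182 TPM in UH, 165, 144 and 115 TPM in SN and 164, 177 and 97.0 TPM in SH, most of it Krt18, Krt8 and Dlk1, which are not specific to mature hepatocytes. Of its 8 tested genes, 5 were lower (62.5%, against 7.57% of all genes) and 1 (Afp) higher (12.5%, against 3.20%) in SN vs UN. In SH vs UH 2 were lower (25.0%, against 5.35%) and 1 higher (12.5%, against 7.65%). Hypoxia gave 2 lower in unsorted cells (25.0%, against 11.8%) and 1 higher in sorted cells (12.5%, against 7.47%). In unsorted cells Krt8 was called lower too without UN replicate 1, with −1.09 in place of −0.67. Cdkn2a RNA was found in all 12 libraries, from 7.37 to 327 TPM, and small Cas9 edits need not remove it.

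Hypoxia in unsorted cells (UH vs UN) raised the collagen receptor chain Itga11 and the leukocyte β chain Itgb2, and lowered Itga9, Itga1 and Lama1. These were 2 members called higher (6.45% of the 31 tested, against 5.46% of all genes tested) and 3 called lower (9.68%, against 11.8%). Hypoxia in sorted cells (SH vs SN) raised Itga2b, Lama3 and Itga7 and lowered Itga1 and Itga9. Here 3 members were called higher (9.68%, against 7.47%) and 2 lower (6.45%, against 5.0%). Itga1 and Itga9 were thus called lower in hypoxia in both populations.

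In normoxia, sorted cells (SN vs UN) had more Itgb2, Itga2, Itgb3, Lama5 and Itga3, and less Lama4, Itga11, Lama1, Itga2b, Lamc1 and Itga9. These were 5 members called higher (16.1%, against 3.20% of all genes tested) and 6 called lower (19.4%, against 7.57%). In hypoxia, sorted cells (SH vs UH) had more Lama5, Itga3, Lama3, Itga2, Lamb3, Itgb7 and Itgb3 and less Lama4 and Itga11. There 7 members were called higher (22.6%, against 7.65%) and 2 lower (6.45%, against 5.35%). The members called in either direction in UH vs UN and SH vs SN, and lower in SH vs UH, made up shares near those of all genes, so those counts are no result about integrins and laminins as families, and the same holds for the 3 more positive responses given next. The difference between the hypoxia responses of sorted and unsorted cells was called for 5 members, 3 with a more positive response in sorted cells (9.68%, against 8.08%) and 2 with a less positive one (6.45%, against 2.18%).

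Pairs of comparisons share libraries (UN serves UH vs UN and SN vs UN, for example), so their values are given side by side and not as repeats of each other. Of the 31 tested members, 15 were called in none of the 4 comparisons between groups (48.4%, against 68.6% of all genes tested), 4 in 1 (12.9%, against 13.4%), 10 in 2 (32.3%, against 14.6%), 2 in 3 (6.45%, against 2.69%) and none in 4 (0.703% of all genes). No test of these shares was made, and members were not matched with all genes on level. Genes below 1 TPM are called less readily because of the added 1, so the shares also depend on level. TPM as deposited gave all genes a median log2 fold change of −0.19 in UH vs UN, 0.17 in SH vs UH and 0.25 in the difference of responses, and median-of-ratios scaling between libraries brought these to 0.00, 0.03 and 0.02. Under that scaling every member called in UH vs UN, SH vs SN and SN vs UN was called in the same direction, whereas Itgb3 lost its call in SH vs UH and Lamc1 in the difference of responses. The median over the tested members was −0.09 in UH vs UN, 0.15 in SH vs SN (0.03 over all genes), 0.16 in SN vs UN (−0.06 over all genes) and 0.37 in SH vs UH. In each comparison for which a member was called, the 2 groups of libraries did not overlap for that gene, and the exact two-sided permutation p was 0.1, the smallest that 3 against 3 libraries allow. The same was true of some members that were not called, such as Itga8 and Lamc3 in UH vs UN.

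Among the laminin ligands, the α chains Lama4 and Lama5 each separated all sorted from all unsorted libraries. Lama4 (ENSMUSG00000019846), the α4 chain of endothelial and mesenchymal basement membranes, was at 36.9, 48.6 and 49.1 TPM in the UN libraries and at 25.4, 40.7 and 45.1 TPM in the UH libraries. In the sorted cells it was at 0.0304, 0.0629 and 0.184 TPM in SN and at 0.0630, 0.0712 and 0.0446 TPM in SH. All 6 unsorted libraries were high and all 6 sorted libraries were near 0, with a wide gap between them. Lama4 was lower in SN vs UN by a log2 fold change of −5.38 (SE 0.202, adjusted p = 7.11e-09, limma) and in SH vs UH by −5.13 (SE 0.202, adjusted p = 9.08e-09, limma), and its UN and UH libraries overlapped.

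Lama5 (ENSMUSG00000015647), the α5 chain found in most epithelial and vascular basement membranes and a ligand of the integrins α3β1 and α6β1, was at 28.7, 21.7 and 24.0 TPM in UN and at 27.7, 36.8 and 28.0 TPM in UH. Its sorted libraries had 55.0, 74.5 and 61.9 TPM in SN and 103.6, 99.3 and 64.6 TPM in SH. Every sorted library lay above every unsorted library, while the groups within each population overlapped. Lama5 was higher in SN vs UN by a log2 fold change of 1.33 (SE 0.192, adjusted p = 0.000287, limma) and in SH vs UH by 1.48 (SE 0.192, adjusted p = 9.27e-05, limma), and hypoxia gave no call in either population.

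Lama1 (ENSMUSG00000032796), the α1 chain of early embryonic basement membranes, was at 3.45, 8.65 and 8.51 TPM in UN, at 1.12, 2.28 and 2.24 TPM in UH, at 1.42, 1.53 and 2.20 TPM in SN and at 1.28, 1.20 and 0.864 TPM in SH. The UN libraries were the high ones, UN replicate 1 less so than the others, and the other 3 groups lay close together. Lama1 fell in UH vs UN (log2 fold change −1.39, SE 0.288, adjusted p = 0.0019, limma) and was lower in SN vs UN (−1.46, SE 0.288, adjusted p = 0.00226, limma). Without UN replicate 1 these values were −1.76 and −1.83.

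Lama3 (ENSMUSG00000024421), the α3 chain, found with β3 in a laminin of epithelial anchoring sites, was low in most libraries. It was at 0.0741, 0.0791 and 0.0526 TPM in UN, at 0.212, 0.344 and 0.329 TPM in UH, at 0.354, 0.268 and 0.187 TPM in SN and at 2.66, 2.76 and 2.07 TPM in SH. Only the SH libraries passed 1 TPM, and UH and SN overlapped below that level. Lama3 rose in SH vs SN (log2 fold change 1.46, SE 0.112, adjusted p = 2.46e-06, limma) and was higher in SH vs UH (1.43, SE 0.112, adjusted p = 2.07e-06, limma). The rise in hypoxia was larger in sorted than in unsorted cells, by 1.18 on the log2 scale (SE 0.159, adjusted p = 0.00054, limma).

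As a sum, markers of fibroblasts and stellate cells were lower in sorted than in unsorted cells, as Lama4 was. The list of 10 genes, all measured and 8 of them with a mean of at least 1 TPM, summed to 5161, 1323 and 1176 TPM in the UN libraries and to 4853, 7134 and 6268 TPM in the UH libraries. In the sorted cells the sum was 201.6, 200.7 and 211 TPM in SN and 72.0, 77.9 and 56.6 TPM in SH. The UN mean of the sum was 2553 TPM, or 1250.0 TPM without UN replicate 1. Col1a1, the most abundant of them over the 12 libraries but not in UN, SN or SH, had means of 704 TPM in UN, 3051 in UH, 6.66 in SN and 22.2 in SH. Its UN mean was raised by UN replicate 1, at 1186 TPM, against 499 and 428 TPM in the others. Lum was at 0 in all UH and SN libraries. SN vs UN had 5 of the 9 tested markers lower (55.6%, against 7.57% of all genes) and none higher (3.20% of all genes). SH vs UH had 6 lower (66.7%, against 5.35%) and only Des higher (11.1%, against 7.65%). Hypoxia split the list in UH vs UN, with 3 up (the collagens Col1a1, Col3a1 and Col1a2) and 3 down (Pdgfra, Pdgfrb and Dcn). These were 33.3% each, against 5.46% and 11.8% of all genes. In SH vs SN 2 were up (22.2%, against 7.47%) and 3 down (33.3%, against 5.0%). Without UN replicate 1, Pdgfrb (−0.94) and Dcn (−0.64) were not called in UH vs UN, and Col3a1, whose UN and UH libraries overlapped, went from 2.01 to 3.12. Pdgfrb and Dcn, named after their values were seen, were not among those lower in SN vs UN, with means of 43.8 and 119.1 TPM in SN. The part of such cells, or of a change of state in the tumor cells, in the levels of Lama4 was not tested.

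Of the β chains, only Lamb3 was called in a comparison between groups. Lamb1 (ENSMUSG00000002900), a β chain of most laminins, was at 109.1, 141.6 and 137 TPM in UN, at 90.6, 109.2 and 108 TPM in UH, at 91.1, 82.8 and 82.8 TPM in SN and at 73.6, 73.2 and 67.2 TPM in SH. SH libraries were the lowest, UN overlapped UH and UH overlapped SN, and no comparison passed the fold threshold. Lamb2 (ENSMUSG00000052911), the β chain of muscle, kidney and vessel laminins and the most abundant β chain on average, was at 82.0, 99.4 and 89.8 TPM in UN and at 74.4, 100.3 and 89.8 TPM in UH. It was at 90.0, 93.1 and 93.9 TPM in SN and at 135, 138 and 150.3 TPM in SH. The SH libraries lay above the other 9, which overlapped, but the log2 fold changes of 0.60 in SH vs SN and 0.68 in SH vs UH were under the fold threshold. Lamb3, the β3 partner of Lama3, had means of 3.37 ± 0.986 TPM in UN, 2.07 ± 0.813 in UH, 4.32 ± 0.73 in SN and 6.16 ± 0.538 in SH (SD, n = 3). It was called higher in SH vs UH alone (log2 fold change 1.25, SE 0.223, adjusted p = 0.000906, limma).

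Of the γ chains, Lamc1 (ENSMUSG00000026478), the γ1 chain of most laminins, was at 86.3, 128 and 125 TPM in UN, at 42.6, 73.4 and 86.1 TPM in UH, at 43.8, 39.5 and 41.1 TPM in SN and at 47.1, 57.4 and 49.1 TPM in SH. UN libraries were the highest, with UH replicate 3 just below them, and SN and SH did not overlap each other although both were low. Lamc1 was called lower in SN vs UN (log2 fold change −1.41, SE 0.226, adjusted p = 0.000599, limma). Lamc3, a γ chain of nerve and vessel laminins, had a mean of 0.0315 TPM in UN and 1.02 TPM in SH and was not called in any comparison.

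Because the reporter is driven by the Tie2 promoter and Lama4 is a chain of vessel walls, 12 endothelial markers were read beside the laminins. All were measured and 3 had a mean of at least 1 TPM, led by Flt1, while Cdh5, Tie1, Emcn, Lyve1 and Erg were below 0.1 TPM. Their sum was 4.53, 2.56 and 3.07 TPM in UN, 20.0, 25.8 and 29.9 TPM in UH, 5.46, 6.03 and 5.34 TPM in SN and 14.3, 14.6 and 11.1 TPM in SH. It was higher in the hypoxic libraries of each population and did not separate sorted from unsorted cells as Lama4 did, and its part in the result was not tested. Tek, the gene of Tie2, had means of 0.133 TPM in UN, 0.157 in UH, 2.49 in SN and 3.04 in SH. Of the 7 tested, hypoxia raised 2 in unsorted cells (28.6%, against 5.46% of all genes) and 3 in sorted cells (42.9%, against 7.47%). It lowered none (11.8% and 5.0% of all genes). Against unsorted cells, sorted cells had Tek and Plvap higher in normoxia (28.6%, against 3.20%) and none lower (7.57% of all genes). In hypoxia Tek was higher and Flt1 lower (14.3% each, against 7.65% and 5.35%). Cells were sorted on a reporter under the Tek promoter, so the higher Tek is no independent result.

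Lama3 and Lamb3 are chains of epithelial basement membranes, and 7 cholangiocyte and epithelial markers were read beside them. All were measured and 5 had a mean of at least 1 TPM, while Epcam was below 0.1 TPM. Their sum, most of it Spp1, was 2761, 3145 and 2911 TPM in UN, 1178, 1119 and 1140.0 TPM in UH, 4750, 4139 and 4714 TPM in SN and 878, 1057 and 1013 TPM in SH. It was lower in the hypoxic libraries of each population, and all 3 SH libraries lay below all 3 UH libraries. Spp1 itself was higher in SH than in UH, with means of 930 and 641 TPM. The lower sum in SH than in UH came from Krt19. Krt19, a keratin of bile ducts, was called higher in hypoxia in both populations, with means of 62.0 TPM in UN, 481 in UH, 0.837 in SN and 4.87 in SH. Of the 6 tested, 1 was higher (16.7%, against 5.46% of all genes) and 2 lower (33.3%, against 11.8%) in UH vs UN. In SH vs SN 2 were higher (33.3%, against 7.47%) and 1 lower (16.7%, against 5.0%). Krt7, another keratin of ducts, had means of 2.07 TPM in UN, 2.67 in UH, 5.48 in SN and 12.7 in SH, highest in SH as Lama3 and Lamb3 were. It rose in SH vs SN (1.09) and alone was higher in sorted cells in either oxygen level (1.12 and 1.89). That is 16.7% in each, against 3.20% and 7.65% of all genes. There 2 were lower in normoxia (33.3%, against 7.57%) and 1 in hypoxia (16.7%, against 5.35%). Their part in the levels of Lama3 and Lamb3 was not tested.

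**Figure D1:**
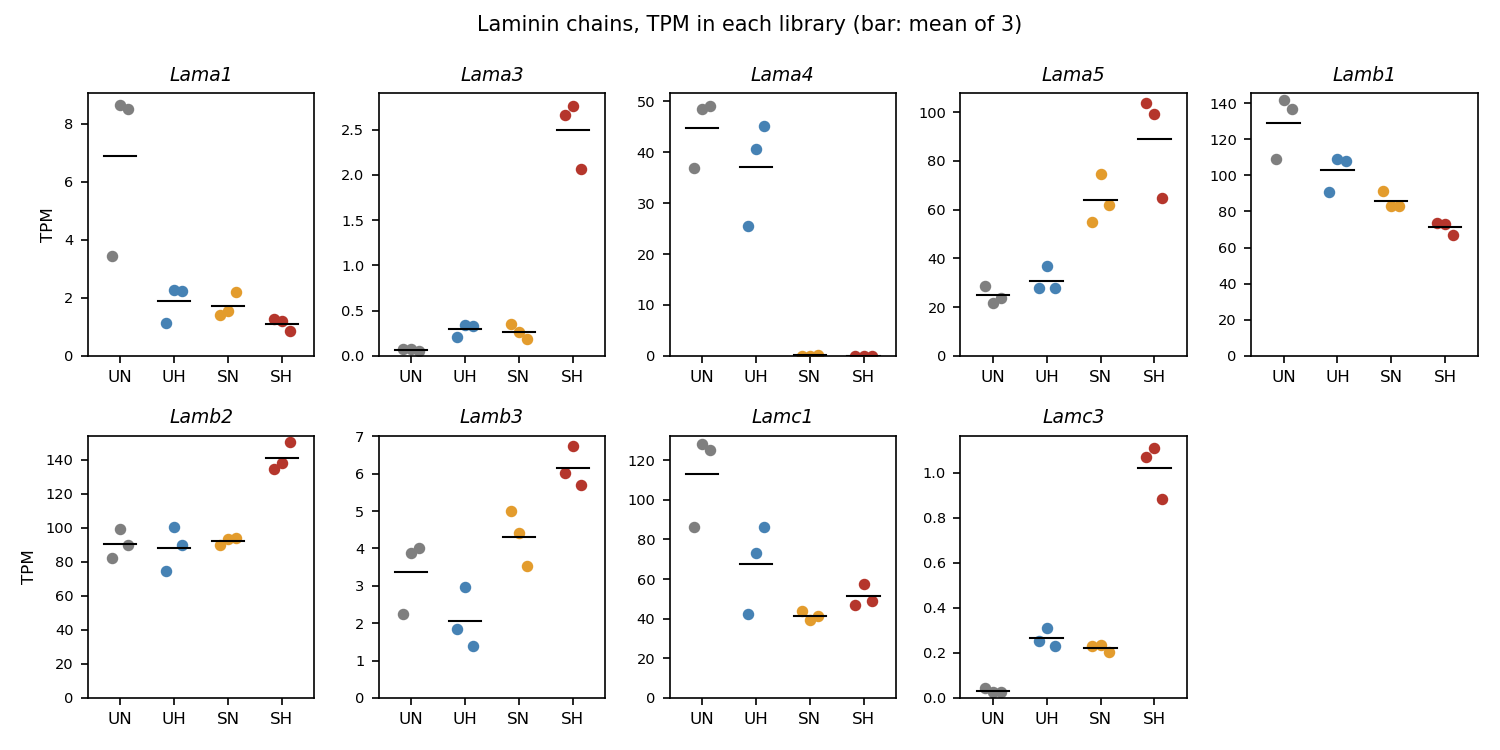
TPM (y axis, from 0) of 9 laminin chains in each of the 12 libraries, by group on the x axis, with points for libraries and bars for the mean of 3. Lama4 is near 0 in the 6 sorted libraries, Lama5 is higher there, and Lama3 passes 1 TPM in SH alone.

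The makeup of the laminin RNA can be read as the share of each chain within its class, which does not depend on the scaling of the libraries and was not tested (mean ± SD, n = 3 libraries, here and below). Lama4 made up 58.3% ± 4.36 (SD, n = 3) of the laminin α TPM in UN and 52.3% ± 6.59 in UH, and 0.141% ± 0.127 in SN and 0.0644% ± 0.0053 in SH. Lama5 was the other main α chain, with 32.8% ± 7.65 in UN, 44.6% ± 6.99 in UH, 96.8% ± 0.787 in SN and 95.9% ± 0.359 in SH. Lama4 and Lama5 together thus made up most of the α RNA in unsorted cells, whereas sorted cells had almost only Lama5. Among the β chains, Lamb1 held 57.9% ± 1.47 in UN and 32.7% ± 2.26 in SH, and Lamb2 held 40.6% ± 1.76 and 64.5% ± 2.47 in the same groups.

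The laminin β chains summed to 223 ± 26.6 TPM in UN, 193 ± 23.5 in UH, 182 ± 3.38 in SN and 218 ± 4.55 in SH (SD, n = 3). The α chains summed to less in every group, with 76.6 ± 6.59 TPM in UN, 70.1 ± 13.7 in UH, 65.9 ± 9.85 in SN and 93.0 ± 22.0 in SH (SD, n = 3). A trimer needs 1 chain of each class, but RNA levels do not give the number of trimers made, and protein was not measured here.

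**Figure D2:**
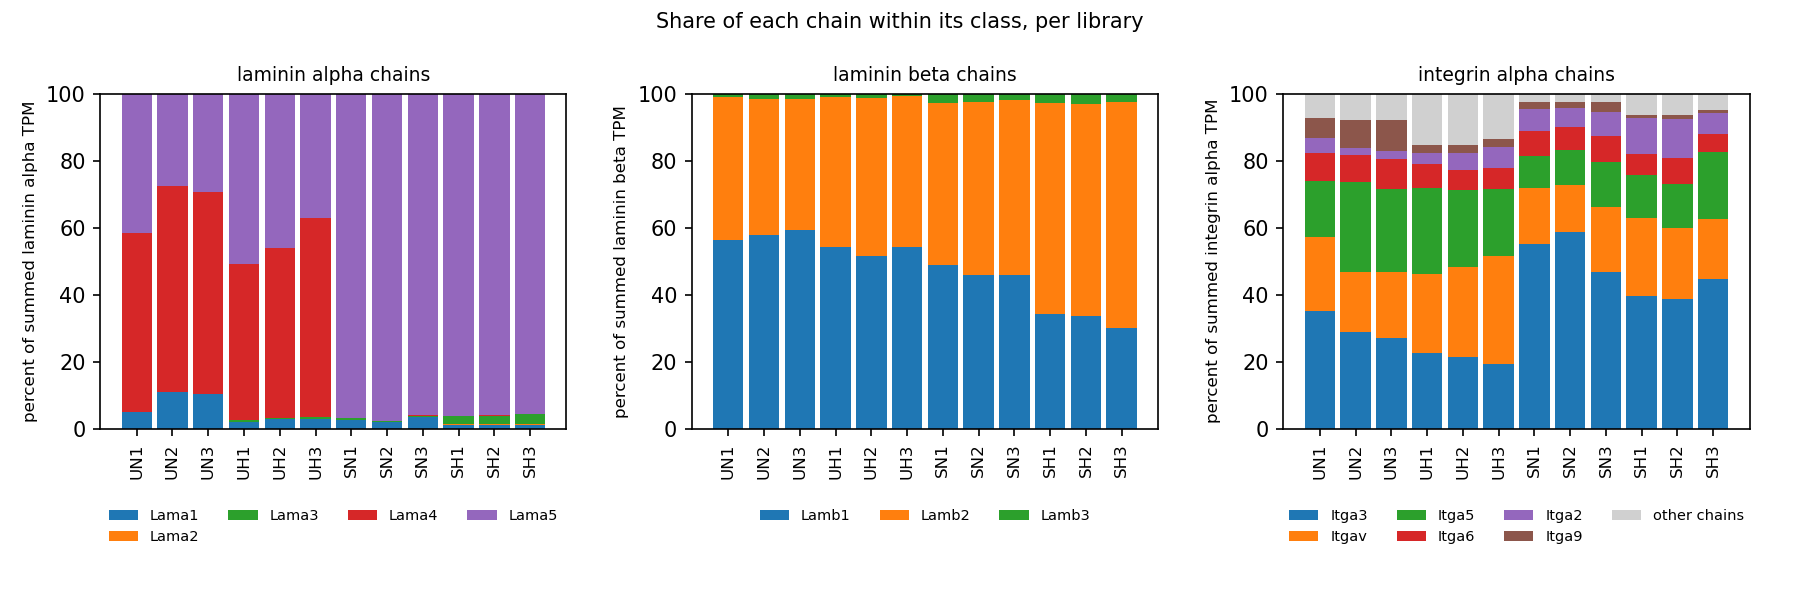
Percent of the summed TPM of a class (y axis, 0 to 100) taken by each chain in each of the 12 libraries (x axis), for laminin α, laminin β and integrin α chains, where grey stands for the integrin α chains beyond the 6 most abundant. Lama5 makes up a mean of 96.8% of the α RNA in SN and Lamb2 a mean of 64.5% of the β RNA in SH.

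Among the receptors, Itgb1 (ENSMUSG00000025809), the β1 chain that pairs with most α chains of the collagen, laminin and fibronectin receptors, was the most abundant member. It was at 366, 353 and 358 TPM in UN, at 406, 475 and 549 TPM in UH, at 408, 377 and 363.5 TPM in SN and at 367, 415.5 and 413 TPM in SH. UH libraries were high and did not overlap UN, while UN, SN and SH overlapped each other or lay close together. Its log2 fold changes with hypoxia (0.40 in unsorted and 0.06 in sorted cells) and with sorting (0.09 in normoxia and −0.25 in hypoxia) were all far from the fold threshold. Itgb1 made up 73.4% ± 4.11 (SD, n = 3) of the integrin β TPM in UN, 79.4% ± 3.47 in UH, 68.3% ± 3.46 in SN and 76.1% ± 0.755 in SH. Most of the rest was Itgb5, a β partner of αv, which ranged from 78.8 to 162 TPM and was not called.

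Of the laminin-binding chains, Itga3 (ENSMUSG00000001507), the α3 chain whose β1 dimer binds laminins with the α5 or α3 chain, was the most abundant α chain on average over the 12 libraries and in UN, SN and SH, while Itgav and Itga5 had higher means in UH. It was at 138, 114 and 105 TPM in UN, at 52.0, 66.9 and 70.2 TPM in UH, at 316, 315 and 218 TPM in SN and at 178, 170.3 and 169 TPM in SH. The order of the groups was SN, SH, UN and UH from high to low, with no overlap between any neighbours. Sorted cells had more Itga3 in normoxia, by a log2 fold change of 1.23 (SE 0.161, adjusted p = 0.000143, limma), and in hypoxia, by 1.45 (SE 0.161, adjusted p = 3.04e-05, limma). In hypoxia its log2 fold changes were −0.91 in unsorted and −0.69 in sorted cells, both under the fold threshold. Its share of the integrin α TPM was 30.3% ± 4.30 in UN, 21.1% ± 1.66 in UH, 53.5% ± 6.14 in SN and 41.0% ± 3.18 in SH.

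Itga6 (ENSMUSG00000027111), which binds laminin as α6β1 or, in hemidesmosomes, as α6β4, was at 32.6, 32.0 and 34.1 TPM in UN, at 16.1, 19.2 and 23.3 TPM in UH, at 42.1, 36.7 and 36.8 TPM in SN and at 29.1, 33.2 and 21.1 TPM in SH. Both hypoxic groups lay below their normoxic group, and no comparison was called. Itgb4 (ENSMUSG00000020758), the β4 partner of α6, was low, at 0.485, 1.54 and 1.44 TPM in UN, at 0.376, 1.65 and 0.583 TPM in UH, at 0.044, 0.124 and 0.0231 TPM in SN and at 0.852, 1.08 and 0.624 TPM in SH. Only the SN libraries stood apart, near 0, and no comparison was called. Itga7, the laminin receptor chain of muscle, was at 0.302, 0.166 and 0.161 TPM in UN, at 1.05, 1.23 and 0.948 TPM in UH, at 0.681, 0.633 and 0.616 TPM in SN and at 3.07, 2.20 and 2.29 TPM in SH. It rose in SH vs SN (log2 fold change 1.09, SE 0.127, adjusted p = 4.71e-05, limma). Its UH libraries lay above its UN libraries as well, by 0.78 (adjusted p = 0.000369, limma), under the fold threshold, although the ratio of means was larger there (5.13, against 3.92 in sorted cells). The change in SH vs SN was 0.98 without SH replicate 1 and 0.79 with quantile normalization, under the threshold in both.

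The collagen-binding α chains went in different directions. Itga11 (ENSMUSG00000032243), the α11 chain of fibroblasts that binds fibrillar collagen as α11β1, was at 5.75, 2.02 and 1.23 TPM in UN and at 20.3, 32.0 and 31.6 TPM in UH. It was at 0.0496, 0.0923 and 0.0780 TPM in SN and at 0.398, 0.423 and 0.262 TPM in SH. UH libraries were the high ones and UN libraries intermediate, while all 6 sorted libraries were below 0.5 TPM. Itga11 rose in UH vs UN (log2 fold change 2.99, SE 0.329, adjusted p = 1.94e-05, limma) and was lower in SN vs UN (−1.74, SE 0.329, adjusted p = 0.00173, limma) and in SH vs UH (−4.39, SE 0.329, adjusted p = 1.48e-06, limma). Without UN replicate 1 the first of these was 3.45 and the second was −1.28. It was not called in SH vs SN (0.34), although the SH libraries lay above the SN libraries and the mean was 4.92 times as high, since the added constant of 1 shrinks changes at this level. The summed fibroblast and stellate markers had means of 2553 TPM in UN (1250.0 without UN replicate 1), 6085 in UH, 204.6 in SN and 68.8 in SH, and their part was not tested. Like Itga11, the sum was higher in UH than in UN and lower in sorted cells, but it was lower in SH than in SN, where Itga11 was not. The higher sum in UH came from the 3 collagens, while Pdgfra was called lower there (−2.24).

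Itga1 (ENSMUSG00000042284, chr13:114953096-115101964), the α1 chain of the collagen and laminin receptor α1β1 of mesenchymal and sinusoidal cells, was at 15.4, 17.1 and 16.8 TPM in UN, at 2.76, 4.33 and 6.35 TPM in UH, at 9.93, 8.43 and 5.60 TPM in SN and at 2.22, 2.37 and 1.17 TPM in SH. Each hypoxic group lay below its normoxic group, and UN was above all others. Itga1 fell in UH vs UN (log2 fold change −1.72, SE 0.265, adjusted p = 0.000244, limma) and in SH vs SN (−1.62, SE 0.265, adjusted p = 0.000513, limma).

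Itga2 (ENSMUSG00000015533, chr13:114833081-114932100), the α2 chain of the collagen receptor of platelets and epithelia, lies beside Itga1 with a gap of 20995 bases and no protein-coding gene between them. It was at 17.9, 8.78 and 9.89 TPM in UN, at 7.61, 15.6 and 22.5 TPM in UH, at 37.6, 30.2 and 33.0 TPM in SN and at 47.3, 51.0 and 23.2 TPM in SH. Unsorted libraries spread widely below the sorted ones, and SH replicate 3 came within 1 TPM of UH replicate 3. Itga2 was higher in SN vs UN (log2 fold change 1.45, SE 0.381, adjusted p = 0.0119, limma) and in SH vs UH (1.39, SE 0.381, adjusted p = 0.012, limma). The call in SN vs UN was lost without UN replicate 2 (1.26, adjusted p = 0.0533, limma). That in SH vs UH was lost without SH replicate 1 (1.24), SH replicate 2 (1.19) or UH replicate 1 (0.99). Itga10, a collagen receptor chain of cartilage, ranged from 0.209 to 0.92 TPM and was not called.

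Of the chains that bind the RGD motif, Itgav (ENSMUSG00000027087), the αv chain of vitronectin and fibronectin receptors, was at 86.3, 71.8 and 77.0 TPM in UN, at 54.9, 83.0 and 117.5 TPM in UH, at 96.3, 75.6 and 91.1 TPM in SN and at 103.8, 92.9 and 68.2 TPM in SH. All 4 groups overlapped. Itga5 (ENSMUSG00000000555), the α5 chain of the fibronectin receptor, was at 65.7, 105.2 and 96.6 TPM in UN, at 59.2, 70.9 and 71.9 TPM in UH, at 55.1, 56.0 and 61.6 TPM in SN and at 57.6, 57.8 and 75.0 TPM in SH. UN held the 2 highest libraries, the other 3 groups overlapped, and no comparison was called. Itga8, a receptor chain for nephronectin, ranged from 0.0132 to 1.24 TPM and was not called. Its hypoxic libraries lay below the normoxic ones in both populations. The log2 fold change was −0.78 in each (adjusted p = 0.000549 in unsorted and 0.000723 in sorted cells, limma). Means were 0.857 TPM in UN, 0.0715 in UH, 1.07 in SN and 0.208 in SH, and the added constant of 1 shrinks changes at this level.

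Itga2b (ENSMUSG00000034664), known as the αIIb chain of the platelet fibrinogen receptor, was at 6.34, 9.75 and 9.79 TPM in UN, at 11.0, 8.94 and 9.92 TPM in UH, at 2.72, 1.80 and 3.30 TPM in SN and at 20.3, 21.4 and 13.5 TPM in SH. SN libraries were the lowest and SH libraries the highest, on either side of the unsorted libraries, which overlapped each other. Itga2b rose in SH vs SN (log2 fold change 2.42, SE 0.224, adjusted p = 9.18e-06, limma) and was lower in SN vs UN (−1.42, SE 0.224, adjusted p = 0.000528, limma). Its response to hypoxia was larger in sorted than in unsorted cells by 2.22 on the log2 scale (SE 0.317, adjusted p = 0.000781, limma).

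Itgb3 (ENSMUSG00000020689), the β3 partner of αIIb and αv, was at 2.18, 2.39 and 2.40 TPM in UN, at 2.34, 2.83 and 2.88 TPM in UH, at 7.53, 8.02 and 8.37 TPM in SN and at 7.84, 8.15 and 4.56 TPM in SH. All sorted libraries lay above all unsorted libraries. Itgb3 was higher in SN vs UN (log2 fold change 1.43, SE 0.185, adjusted p = 0.00013, limma) and in SH vs UH (1.06, SE 0.185, adjusted p = 0.000778, limma). The second call sat at the threshold and was lost with median-of-ratios scaling (0.89), quantile normalization (0.95), or without SH replicate 1 (0.96), SH replicate 2 (0.93) or UH replicate 1 (0.99). Itgb6 and Itgb8, the β chains of the αv dimers that activate TGF-β, did not pass 0.704 and 0.756 TPM and were not called.

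The 5 markers of megakaryocytes and platelets, all measured, had a mean of at least 1 TPM for Ppbp only, the most abundant of them. Gp6 was at 0 in all 12 libraries, and Gp9 had a mean under 0.1 TPM. Their sum was 6.46, 7.31 and 6.64 TPM in UN, 0.927, 1.48 and 1.53 TPM in UH, 59.7, 62.1 and 28.6 TPM in SN and 10.6, 9.67 and 8.16 TPM in SH. The sum was highest in SN, where Itga2b was lowest, but in SN it was almost all Ppbp, with a mean of 48.5 TPM. Gp1ba, named after its values were seen, was highest in SH like Itga2b, with means of 0.229 TPM in UN, 0.329 in UH, 0.401 in SN and 1.31 in SH, and was not called. Gp9 was above 0 in SH alone. The part of these markers in the level of Itga2b was not tested. Of the 3 tested, 2 were called lower in UH vs UN (66.7%, against 11.8% of all genes). SH vs SN had 1 lower (33.3%, against 5.0%). Both contrasts of sorted with unsorted cells had 1 higher (33.3%, against 3.20% in normoxia and 7.65% in hypoxia).

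Itga9 (ENSMUSG00000039115), the α9 chain that binds tenascin-C, osteopontin and VCAM-1 as α9β1, was at 23.5, 33.4 and 36.0 TPM in UN, at 5.61, 7.49 and 8.94 TPM in UH, at 11.6, 9.92 and 14.7 TPM in SN and at 4.83, 5.33 and 3.81 TPM in SH. The order of the groups was UN, SN, UH and SH from high to low, without overlap between neighbours. Itga9 fell in UH vs UN (log2 fold change −1.94, SE 0.21, adjusted p = 1.79e-05, limma) and in SH vs SN (−1.20, SE 0.21, adjusted p = 0.000797, limma), and it was lower in SN vs UN (−1.29, SE 0.21, adjusted p = 0.000659, limma). Of the genes of these 3 ligands, Vcam1 was lower in hypoxia in unsorted cells (−2.99, adjusted p = 2.47e-07, limma) and in sorted cells (−1.96, adjusted p = 9.56e-06, limma). Spp1 was lower in both as well (−2.14 and −2.27), and Tnc was not called in either, with log2 fold changes of 0.00 and 0.07.

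The leukocyte chains were mostly low, apart from Itgb2 and, in sorted cells, Itgb7. Itgb2 (ENSMUSG00000000290), the β2 chain that leukocytes pair with αL, αM, αX or αD, was at 5.76, 1.14 and 1.54 TPM in UN, at 9.70, 11.9 and 10.9 TPM in UH, at 13.6, 19.2 and 24.2 TPM in SN and at 19.5, 23.3 and 19.5 TPM in SH. UN libraries were the lowest, UH libraries intermediate, and SN and SH overlapped at the top. Itgb2 rose in UH vs UN (log2 fold change 1.83, SE 0.354, adjusted p = 0.00122, limma) and was higher in SN vs UN (2.55, SE 0.354, adjusted p = 0.000211, limma), or 2.34 and 3.07 without UN replicate 1. None of its α partners Itgal, Itgam, Itgax and Itgad passed 0.718 TPM in any library. Itgb7, which pairs with α4 or αE, was called higher in SH vs UH (log2 fold change 1.21, SE 0.121, adjusted p = 1.35e-05, limma), from a mean of 0.402 to 2.25 TPM, and Itgae did not pass 0.393 TPM. In normoxia the sorted libraries had more Itgb7 as well, with means of 0.492 TPM in UN and 1.72 TPM in SN and no overlap. That log2 fold change of 0.87 (adjusted p = 0.00022, limma) was under the fold threshold.

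Leukocyte markers were compared with Itgb2. Of 10, all measured, 3 had a mean of at least 1 TPM, led by Cd14, while Ptprc, Cd3e and Adgre1, which define leukocytes, T cells and macrophages, had means under 0.1 TPM. The sum was 117.5, 88.6 and 89.5 TPM in UN, 49.3, 46.6 and 50.04 TPM in UH, 304, 341 and 345 TPM in SN and 126, 132.6 and 137 TPM in SH. The sum was lower in UH than in UN, while Itgb2 was higher in UH. Most of the sum in UN was Cd14, with means of 91.0 TPM in UN and 26.4 TPM in UH. Cd68 and Csf1r were higher in UH, like Itgb2. Their means were 3.09 and 2.91 TPM in UN and 13.4 and 7.21 TPM in UH. Among the 7 tested, UH vs UN had Cd68 and Csf1r higher (28.6%, against 5.46% of all genes) and Cd14 lower (14.3%, against 11.8%). SH vs SN had Cd68 higher and Cd14 lower (14.3% each, against 7.47% and 5.0%). Sorted cells had Cd14 and Cd68 higher than unsorted cells in either oxygen level. These were 28.6%, against 3.20% of all genes in normoxia and 7.65% in hypoxia. None was lower, against 7.57% and 5.35% of all genes. Their part in the level of Itgb2 was not tested.

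**Figure D3:**
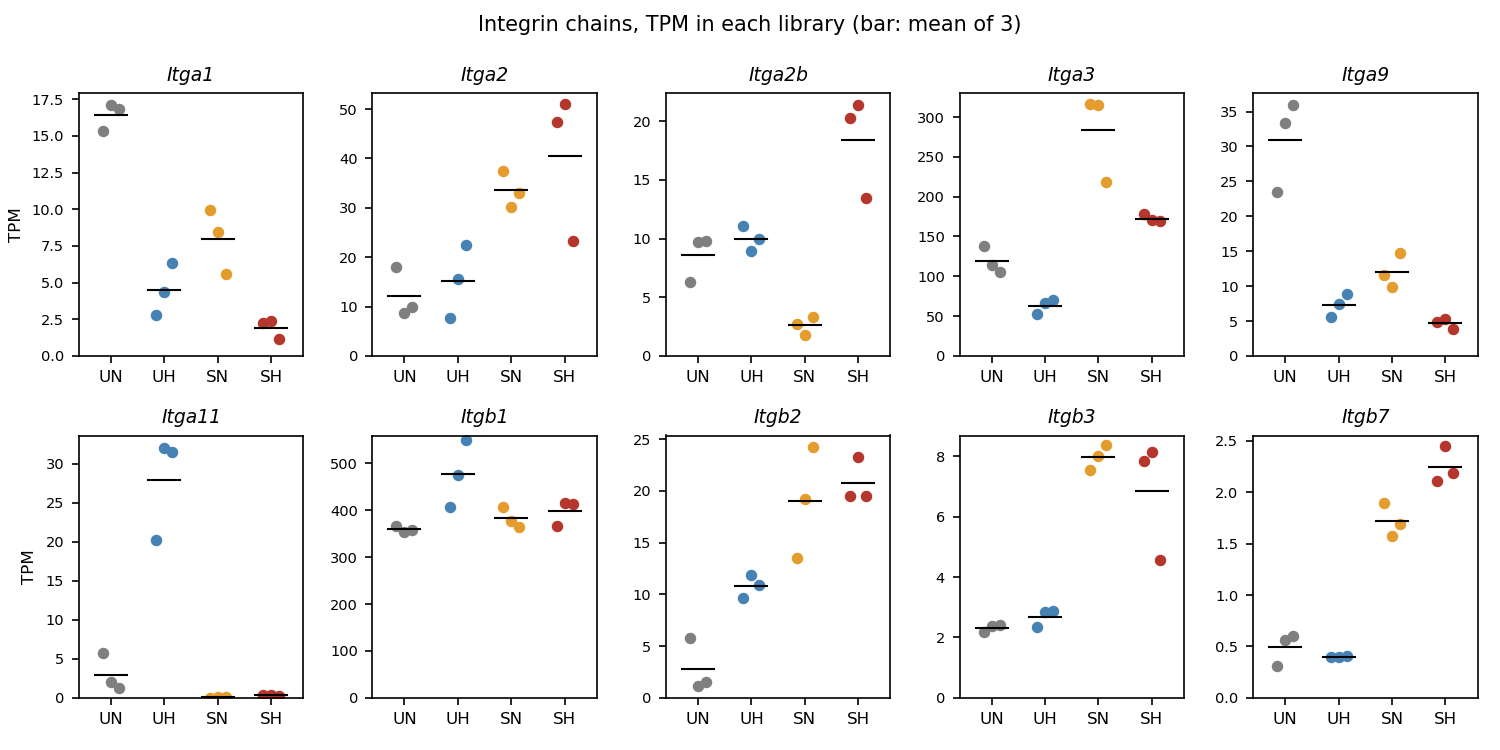
TPM (y axis, from 0) of 10 integrin chains in each of the 12 libraries, by group on the x axis, with points for libraries and bars for the mean of 3. Itga1 and Itga9 are lower in hypoxia in both populations, Itga3 and Itgb3 are higher in sorted cells, and Itga11 is high in UH, from 20.3 to 32.0 TPM.

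Integrin RNA summed over 26 chains was 883 ± 33.0 TPM in UN, 901 ± 140.4 in UH, 1086 ± 57.4 in SN and 946 ± 34.3 in SH (SD, n = 3). The α chains summed to 393 ± 3.65 TPM in UN and 526 ± 54.4 TPM in SN (SD, n = 3), and the mean of Itga3 alone was 119 TPM in UN and 283 TPM in SN, a wider gap than that of the sum. The β chains summed to 491 ± 30.5 TPM in UN and 560.0 ± 8.08 TPM in SN (SD, n = 3).

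The partners of the 2 families were taken from 4 lists. Of 27 adaptors and focal adhesion genes, all tested, UH vs UN had 3 higher (11.1%, against 5.46% of all genes) and 1 lower (3.70%, against 11.8%). SH vs SN had 1 higher (3.70%, against 7.47%) and 2 lower (7.41%, against 5.0%). SN vs UN had 3 higher (11.1%, against 3.20%) and 0 lower (7.57% of all genes). SH vs UH had 1 higher (3.70%, against 7.65%) and 4 lower (14.8%, against 5.35%). Lims2, a LIM adaptor that binds integrin-linked kinase, rose in UH vs UN (log2 fold change 4.36, adjusted p = 3.49e-06, limma) and in SH vs SN (1.78, adjusted p = 0.00293, limma). Fermt2, the kindlin that activates β1 and β3 integrins, rose in UH vs UN by 1.90 (adjusted p = 1.94e-06, limma), and Zyx (zyxin) by 1.02, whereas Actn4, an actin crosslinker, was lower (−1.12). Actn1 was called higher there only without UN replicate 1 (1.13, against 0.93 with it). Parvb, Bcar1 and Tns2, which link integrins to actin or signaling, were higher in SN vs UN by log2 fold changes of 1.77, 1.44 and 1.10. Talin (Tln1) and Tns2 fell in SH vs SN, with −1.02 and −1.03. Ptk2b was higher in SH vs UH by 1.01, and Lims2, Fermt2, Vcl and Zyx were lower there, with −3.40, −1.71, −1.06 and −1.02. The medians of the list, 0.03, 0.07, 0.03 and 0.12 in the 4 comparisons in this order, lay within 0.25 of those of all genes.

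Of 17 basement membrane partners of laminin, 16 were tested. SN vs UN had 1 higher (6.25%, against 3.20% of all genes) and 7 lower (43.8%, against 7.57%). SH vs UH had 2 higher (12.5%, against 7.65%) and 5 lower (31.2%, against 5.35%). Nid1, which bridges the laminin γ1 chain and collagen IV, had means of 57.6 TPM in UN, 273 in UH, 0.711 in SN and 0.9 in SH, and its log2 fold change was −5.05 in SN vs UN (adjusted p = 1.04e-07, limma) and −7.12 in SH vs UH (adjusted p = 6.27e-09, limma). Its paralog Nid2 fell from 14.8 TPM in UN to 2.57 in UH and was at 0.0082 TPM in SN and 0.132 TPM in SH. Both nidogens were thus low in sorted cells, while Lamc1 was at 41.5 TPM in SN. Nid2 was near 0 there, like Lama4, and Nid1 ranged from 0.654 to 1.20 TPM. Fibroblast and stellate markers were lower in the same comparisons, with list medians of −3.20 and −4.44, and their part in the partners was not tested. The first median is the value of Acta2, which was −2.43 without UN replicate 1. Smoc1, Sparc and Smoc2 were also lower in SN vs UN, with log2 fold changes of −4.85, −2.39 and −2.30. Without UN replicate 1 the value of Smoc2 was −3.03. Smoc1, Col4a6, Sparc and Nid2 were lower in SH vs UH, with −4.56, −2.63, −2.61 and −1.64. Col18a1, which gives rise to endostatin, was higher in both, by 2.25 and 2.10, and Ntn4, a netrin that binds laminin γ chains, was higher in SH vs UH by 1.42. In UH vs UN 3 were higher (18.8%, against 5.46%) and 2 lower (12.5%, against 11.8%). Nid1 and Fbln2 rose there by 2.21 and 1.74, and Nid2 was lower, with −2.16. Col4a6 (1.25, or 1.98 without UN replicate 1) and Smoc2 (−1.23, or −1.96 without it) were called too, although their UN and UH libraries overlapped, since UN replicate 1 lay above the UH libraries for Col4a6 and among them for Smoc2. In SH vs SN, Fbln2, a fibulin that binds laminin, rose by 2.24 and Hspg2 (perlecan) by 1.12, which makes 2 higher (12.5%, against 7.47%), and none was called lower (5.0% of all genes). The collagen IV chains Col4a1 and Col4a2, the most widespread of their family, were not called. Medians of the list were −0.16 for SN vs UN, −0.22 for SH vs UH, 0.22 for UH vs UN and 0.20 for SH vs SN.

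Of 8 non-integrin laminin receptors, all tested, Sdc2 (syndecan-2) was called lower in SH vs UH (log2 fold change −1.40, adjusted p = 1.52e-05, limma), which is 12.5% of the list against 5.35% of all genes. No other change passed both thresholds in the 4 comparisons, but several passed the p threshold with a smaller fold. These include Dag1 in UH vs UN (0.97, adjusted p = 0.00399, limma), Sdc4 in SH vs SN (0.88, adjusted p = 0.000229, limma) and Sgcb in SN vs UN (−0.93, adjusted p = 0.00125, limma, and called without UN replicate 1, with −1.14). Dag1, which encodes dystroglycan, had means of 112 TPM in UN, 226.5 in UH, 124 in SN and 187 in SH. All 3 were named after their values were seen. The median log2 fold change of this list was 0.07 for UH vs UN, 0.11 for SH vs SN, −0.20 for SN vs UN and −0.18 for SH vs UH.

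Other ligands of integrins were 17 genes, since 2 of the 19 symbols listed are newer names of Cyr61 and Ctgf. SN vs UN had 7 lower (41.2%, against 7.57% of all genes) and none higher (3.20% of all genes). SH vs UH had 4 lower (23.5%, against 5.35%) and 1 higher (5.88%, against 7.65%). UH vs UN had 4 lower (23.5%, against 11.8%) and 1 higher (5.88%, against 5.46%), and SH vs SN 2 lower (11.8%, against 5.0%) and 1 higher (5.88%, against 7.47%). Without UN replicate 1, Vcam1 (−1.11, against −0.92 with it) and Ltbp1 (−1.05, against −0.83) were called lower in SN vs UN as well, and Thbs1 (−1.17, against −0.86) in UH vs UN. Postn (periostin), Fbn1 (fibrillin), Tnc (tenascin-C), Npnt (nephronectin) and Icam1 had the largest decreases in SN vs UN, with log2 fold changes of −5.57, −4.15, −2.23, −2.11 and −1.82. In SH vs UH, Postn, Ctgf, Fbn1 and Tnc were lower, with −5.29, −4.25, −4.15 and −2.16, and Npnt was higher by 1.23. Of the 9 fibroblast and stellate markers tested, 5 and 6 were lower in these 2 comparisons, and their part in the ligands was not tested. In UH vs UN, Ctgf rose by 2.57 and Vcam1, Spp1 (osteopontin), Npnt and Icam1 were lower, with −2.99, −2.14, −1.43 and −1.10. In SH vs SN, Npnt rose by 1.91 and Spp1 and Vcam1 were lower, with −2.27 and −1.96. Fibronectin (Fn1), the ligand of α5β1 and named for its level after values were seen, had means of 2226 TPM in UN, 3604 in UH, 2276 in SN and 4190 in SH and was not called. The list's medians were −0.11 for UH vs UN, 0.07 for SH vs SN, −0.83 for SN vs UN and −0.39 for SH vs UH, beside −0.19, 0.03, −0.06 and 0.17 over all genes.

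Positions were taken from GENCODE M21 (GRCm38), where all 36 members were found. Besides the pair Itga2 and Itga1, the low leukocyte chains Itgam, Itgax and Itgad lie in a row on chromosome 7 with gaps of 11055 and 3718 bases. Promoter sequences from RefSeq (GRCm38.p6) were found for 23 members, 26 promoters in all. The 250 bases upstream of each start were searched on both strands for ACGTG and GCGTG, the letters at the core of the site that hypoxia-inducible factors bind. At least 1 match was found in 6 of the 26 (23.1%), compared with 38.6% of all 32851 promoters of the same length. A palindrome CACGTG is matched on both strands, and a match is a description of letters, not a bound site.

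The sequences shown are the upstream bases of 3 members the results turn on, the neighbours Itga1, called lower in hypoxia, and Itga2, called higher in sorted cells, and the ligand Lama5. All 3 lie on the − strand and are printed 5′ to 3′ with a match in capitals, and GENCODE M21 places no gene in these windows. The window of Itga2 (chr13:114932101-114932350) has 1 match to GCGTG, and those of Itga1 (chr13:115101965-115102214) and Lama5 (chr2:180225860-180226109) have none, which says only that these letters are not there.
Itga1: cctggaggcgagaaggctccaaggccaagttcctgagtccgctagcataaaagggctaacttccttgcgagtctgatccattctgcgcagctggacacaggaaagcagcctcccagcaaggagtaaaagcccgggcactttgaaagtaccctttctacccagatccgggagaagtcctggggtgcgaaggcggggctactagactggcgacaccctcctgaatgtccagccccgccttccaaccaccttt
Itga2: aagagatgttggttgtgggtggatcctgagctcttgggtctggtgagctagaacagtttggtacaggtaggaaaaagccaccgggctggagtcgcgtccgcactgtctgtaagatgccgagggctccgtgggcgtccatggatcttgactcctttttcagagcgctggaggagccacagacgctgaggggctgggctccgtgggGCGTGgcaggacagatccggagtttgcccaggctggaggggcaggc
Lama5: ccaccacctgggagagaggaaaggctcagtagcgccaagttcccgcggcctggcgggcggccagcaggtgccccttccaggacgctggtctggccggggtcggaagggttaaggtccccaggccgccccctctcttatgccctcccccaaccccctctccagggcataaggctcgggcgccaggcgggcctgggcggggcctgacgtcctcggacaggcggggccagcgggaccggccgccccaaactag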

How the data were processed

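RNA-seq of 12 libraries (3 for each of UN, UH, SN and SH) was used as the TPM table that the authors deposited, which they made by mapping reads to mm10 and quantifying genes. The release of the annotation is not given in the sources used here. Values were tested as log2(TPM + 1), leaving out genes whose mean was under 0.1 TPM, in a limma fit of all 4 groups with moderation that follows mean expression (limma 3.58.1, R 4.3.3, Python 3.11.15, pandas 2.3.3), adjusted by Benjamini-Hochberg over all genes tested. The fit was tested on simulated data. Contrasts were UH vs UN, SH vs SN, SN vs UN, SH vs UH and the difference of the hypoxia responses. Members were found by symbol, and 1 member and 2 marker genes are not reported here. Values in every library are given for up to 3 called members in each direction of a comparison, the most abundant chain of each class and Itgb1, Itgb4, Itga6, Itgav, Itga5 and Lamb1. At most 5 called genes are named per list and direction. Shares are the percent of the summed TPM of a class, for classes described in full. Exact permutation tests compared 3 with 3 libraries. The members and lists were chosen with earlier results of these data known. Alternatives were other added constants, filters, scalings, moderation, a fit of the compared groups alone, a replicate term and leaving out each library. No read counts were used.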

Additional observations from a re-analysis of the deposited data

Results flagged for a closer look

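For 5 members the response to hypoxia differed between sorted and unsorted cells, tested as a difference of differences in limma with Benjamini-Hochberg adjustment over all genes. Itga2b responded more in sorted cells by 2.22 on the log2 scale (2.42 against 0.21, adjusted p = 0.000781). Lama3 responded more in sorted cells by 1.18 (1.46 against 0.28, adjusted p = 0.00054). For Lamc1 the difference was 1.07, between 0.29 in sorted and −0.78 in unsorted cells (adjusted p = 0.0338), neither of which was called by itself, and the call was lost in 12 of 19 alternatives. Itga11 differed by −2.65, since its response was 0.34 in sorted cells and 2.99 in unsorted cells (adjusted p = 0.00253). The added constant of 1 shrinks changes of genes below 1 TPM, as Itga11 was in sorted cells, and its ratios of mean TPM lay closer, at 4.92 in sorted and 9.32 in unsorted cells. UN replicate 1 had 5.75 TPM of Itga11, against 2.02 and 1.23 TPM in the other UN libraries. The unsorted ratio is thus larger without that library, and the 2 ratios lie further apart. With a constant of 0.1 its difference was −2.03 (adjusted p = 0.0414). Lama3, below 1 TPM outside SH, had ratios of 9.25 in sorted and 4.30 in unsorted cells. For Itgb2 the difference was −1.68, between 0.15 in sorted and 1.83 in unsorted cells (adjusted p = 0.0338), and this call too was lost in 12 of 19 alternatives, the replicate term among them.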

How the results depend on the processing

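Of 35 calls, those outside the difference of responses kept their call under all alternatives except for 4, and each kept its direction. Itga7 in SH vs SN and Itgb3 in SH vs UH lost the fold threshold, and Itga2 lost the p threshold in SN vs UN and the p or fold threshold in SH vs UH, as given beside them; without the filter its adjusted p was 0.0706 and 0.0646, and in a fit of the compared groups alone 0.0597 in SH vs UH (limma). In the difference of responses, Itgb2 lost its call in 12 of 19 alternatives and Lamc1 in 12 of 19, and Lama3 with quantile normalization alone (0.91). The added constant changes low genes most: with 0.1 in place of 1, members called higher and lower were 5 and 5 in UH vs UN (8.36% and 17.5% of all genes at this setting) and 9 and 4 in SH vs SN (15.1% and 6.73%), 9 were higher in SN vs UN (5.24%), 11 were higher in SH vs UH (14.9%) and 8 differed in response (14.1%). The number that differed in response was 3 with no filter on low values, 3 with quantile normalization and 3 to 8 when leaving out 1 library, with 8 without UN replicate 1. Shares of all genes at these settings are not given here, so these counts are no result about the members as families. Lamb2, not called, had a log2 fold change of −0.04 in UH vs UN and turned to 0.31 with median-of-ratios scaling, 0.15 with quantile normalization, 0.073 without UH replicate 1 and 0.03 without UN replicate 2, within a leave-one-out range of −0.139 to 0.073. Lamb2 in SN vs UN was 0.03 and turned to −0.033 without UN replicate 1, within a leave-one-out range of −0.033 to 0.104. Itga1 and Itgb4 joined the members lower in SN vs UN, 8 in all, without UN replicate 1 or without SN replicate 2. They also joined, again 8 in all, with the added constant of 0.1. Of all genes, 12.7% were lower in SN vs UN with that constant, against 7.57% with 1. Shares of all genes in the fits without a library are not given here. Itga1 alone joined without SN replicate 1, and both scalings added Itga1 to those lower in SH vs UH. Lama3 is not tested with a filter at a mean TPM of 1. With the replicate number as a replicate block, the counts of calls between groups did not change. In the difference of responses, Itgb2 (adjusted p = 0.0561, limma) was lost and Itgb4 gained. This left 4 responses more positive in sorted cells and 1 less. Residuals of libraries with the same number had correlations of −0.063 to 0.141, so no strong shared effect was seen. Such low correlations cannot show whether libraries with the same number came from the same culture. The cause of these changes was not tested.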
